A study of Mus musculus with 12 samples.

Results

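The genes described here encode SR proteins, hnRNP proteins and the splicing regulators named for neurons. They were chosen by symbol: Srsf and Tra2 genes, Srrm1 to Srrm4, every Hnrnp gene, Ptbp1 to Ptbp3, Rbfox1 to Rbfox3, Celf1 to Celf6, Nova1 and Nova2, Mbnl1 to Mbnl3, and Elavl1 to Elavl4. The rule found 58 of the 32494 genes in the deposited table, and 57 of them reached the mean of 1 CPM (read counts scaled to the size of each library) required for testing. Mbnl3 was the exception. RNA was sequenced from the hypothalamus of 12 male mice, and the design names 2 groups. Both carried floxed Smc3 alleles and both received tamoxifen, with tissue taken 5 weeks after it. Every title, cKO mice included, also has the word control, whose meaning the labels do not give. An age of 8 weeks is stated with no step attached to it. Mice without the transgene Camk2a-cre/ERT2 formed the WT group (n = 7) and mice with it the cKO group (n = 5). The transgene makes a tamoxifen-activated recombinase under a promoter of forebrain excitatory neurons, while the libraries hold RNA of whole tissue, glia included. Each mouse is named by its group and the number in its title, and values after ± are SDs over the 7 WT or the 5 cKO mice. Log2 changes are cKO minus WT on log2(CPM + 1).

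Splicing removes introns from a new transcript, and these proteins decide which exons are kept. SR proteins carry repeats of arginine and serine and mostly bind within exons, where they recruit the splicing machinery. Many hnRNP proteins bind introns or exons and block the use of nearby splice sites. Rbfox, Celf, Nova, Mbnl, Ptbp and Elavl proteins bind short RNA motifs and set the exon choices by which neurons differ from other cells. Many of these genes regulate themselves through exons or introns that send the transcript to decay, so a gene total does not separate coding from unproductive transcripts. In the GENCODE M21 annotation, which may differ from the one the authors used, 31 of the 58 members (53.4%) have a transcript annotated for nonsense-mediated decay, against 27.9% of the 13702 tested coding genes. A retained-intron transcript is annotated for 43 members (74.1%), against 57.2% of those genes. The members had a median of 9 annotated transcripts, against 5.

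The floxed gene was read first, as a check of the labels, and it went against them. In WT the Smc3 level was 81.6 ± 3.14 CPM, and in cKO it stood higher, at 131 ± 10.3 CPM (log2 change 0.67, SE 0.05). The labels do not say which exons are floxed, and a gene total can include reads from outside the deleted part, so it is a limited check of the deletion. Every direction below refers to the labels alone. WT 1 was sequenced deepest (68.7 M reads), and the 11 other libraries held 17.1 M to 24.0 M. Markers of the named tissue were uneven: the mean of log2(CPM + 1) over 16 genes of hypothalamic neurons ran from 1.84 (WT 5) to 3.85 in WT and from 2.38 to 4.12 in cKO, with WT 4 next lowest at 2.05. Oxytocin (Oxt) ranged from 0.280 to 348 CPM over the 12 libraries. For 8 oligodendrocyte genes the mean ran from 7.58 to 8.76 (WT 5) in WT and from 7.78 to 8.71 (cKO 13) in cKO. Over 11 genes of thalamic neurons, an adjoining tissue, the mean ran from 5.84 to 6.89 in WT and from 5.13 to 6.09 in cKO, and 4 of the 11 were lower in the libraries labelled cKO (limma adjusted p-values of 0.0489 or less), where 7.6% of all tested genes were. In bulk tissue fewer cells of a type and less RNA per cell cannot be told apart.

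Nearly all of these genes were well expressed. Mean levels of the 57 tested members ran from 12.5 CPM (Hnrnpf) to 800.2 CPM (Celf4), and each rested on at least 219 reads in every library. To compare genes, CPM was divided by transcript length, the median over the gene's coding transcripts in GENCODE's basic set. On this per-kilobase scale Hnrnpa2b1, a carrier of mRNA in neurites as well as a splicing repressor, stood highest in the libraries labelled WT, at 353 ± 15.6 CPM per kb, followed by Celf4 at 295 ± 19.9. Rbfox1, a neuronal regulator that binds GCATG, was at 165 ± 13.7 CPM per kb and Srsf5 at 160.3 ± 13.2. The SDs are spreads between mice and do not cover the error of the assumed lengths, so these 2 are not ranked. Within families the order was uneven. Ptbp2, the form of polypyrimidine tract protein kept in neurons, was at 49.4 ± 1.26 CPM per kb, against 10.4 ± 0.697 for Ptbp1, which neurons switch off, and 10.5 ± 0.603 for Ptbp3. Elavl3 stood at 78.7 ± 4.07, above Elavl4 at 32.7 ± 1.49 and the widely expressed Elavl1 at 15.5 ± 0.457 CPM per kb. Rbfox3, the NeuN antigen used to mark neurons, was at 61.1 ± 3.05 and Rbfox2 at 60.6 ± 4.95 CPM per kb. Before division by length (2479.5 and 1765 bases) they stood at 151 ± 7.57 and 107 ± 8.73 CPM in WT. How these 2 compare thus depends on the lengths used. Mbnl3 was close to background, at 0.186 to 1.29 CPM in WT and 0.665 to 0.9796 CPM in cKO, or 4 to 53 reads.

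**Figure D1:**
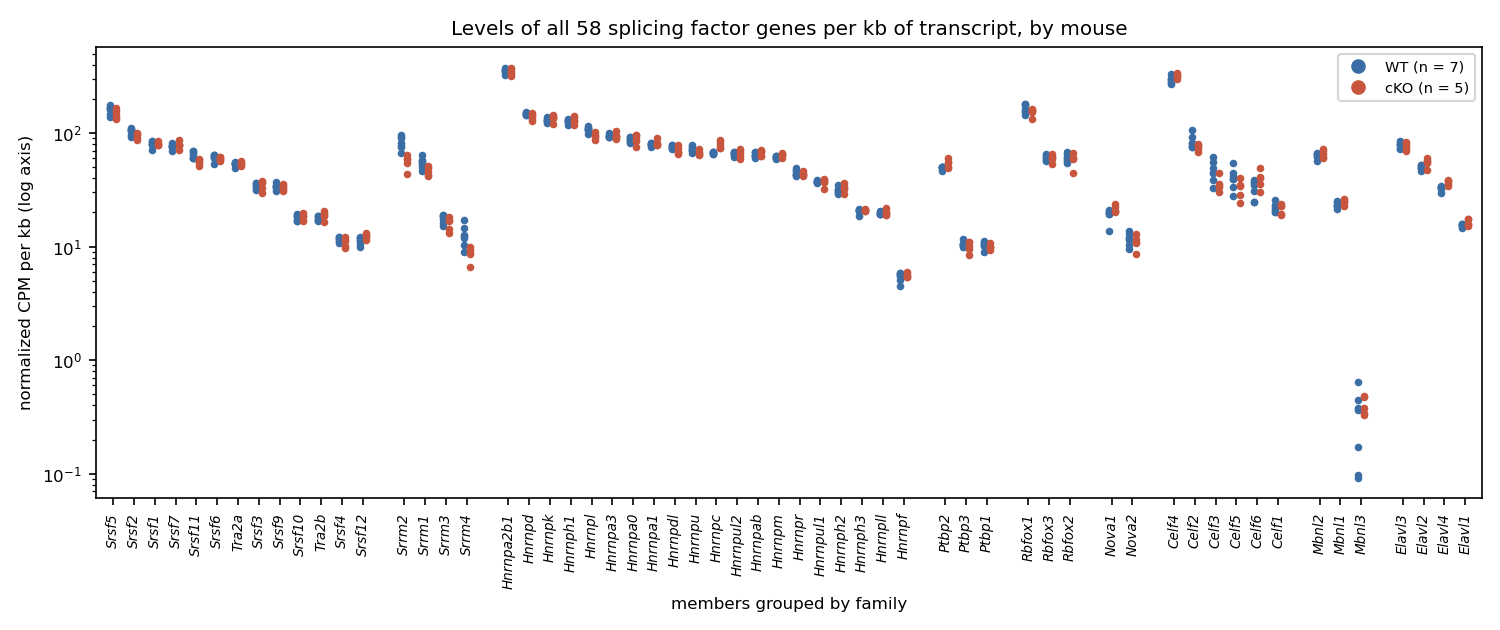
Normalized CPM per kb of transcript (log axis) of all 58 genes, grouped by family along the x axis and ordered by their WT level, with 1 point for each mouse (WT in blue, n = 7; cKO in red, n = 5). Most points of the 2 groups lie on each other, Hnrnpa2b1 and Celf4 stand highest, and Mbnl3 lies far below the rest.

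Whether the libraries labelled cKO differed in these genes was asked with limma on log2(CPM + 1) across all 15359 genes that reached the 1 CPM mean. Of the 57 tested members 7 (12.3%) were past an adjusted p-value of 0.05, where 14.1% of all tested genes were. Of the 7, 2 were higher (6.54% of all tested genes were) and 5 lower (7.6% of all). The count is thus near that of the whole table and is no result about the members as a set. Their median log2 fold change was 0.00 (0.01 over all tested genes). Their median absolute change was 0.07, against 0.10 over all tested genes and 0.09 over the 10081 genes at least as abundant as the lowest tested member. The ranges of the groups did not overlap for 3 of the 57, namely Srrm2, Srsf11 and Hnrnpc (6.73% of all tested genes had such ranges). With WT 4 and WT 5 left out, the count was 10, and the 7 were among them, while calls over all tested genes numbered 2238. Without cKO 14 it fell to 3, namely Srrm2, Srsf11 and Hnrnpc, while calls over all tested genes fell from 2172 to 1456. With the thalamic marker mean as a covariate it was 3, namely Srrm2, Hnrnpc and Elavl4, and calls over all tested genes fell to 779. The marker mean differs between the groups itself, and its part in these results was not tested beyond that fit.

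**Figure D2:**
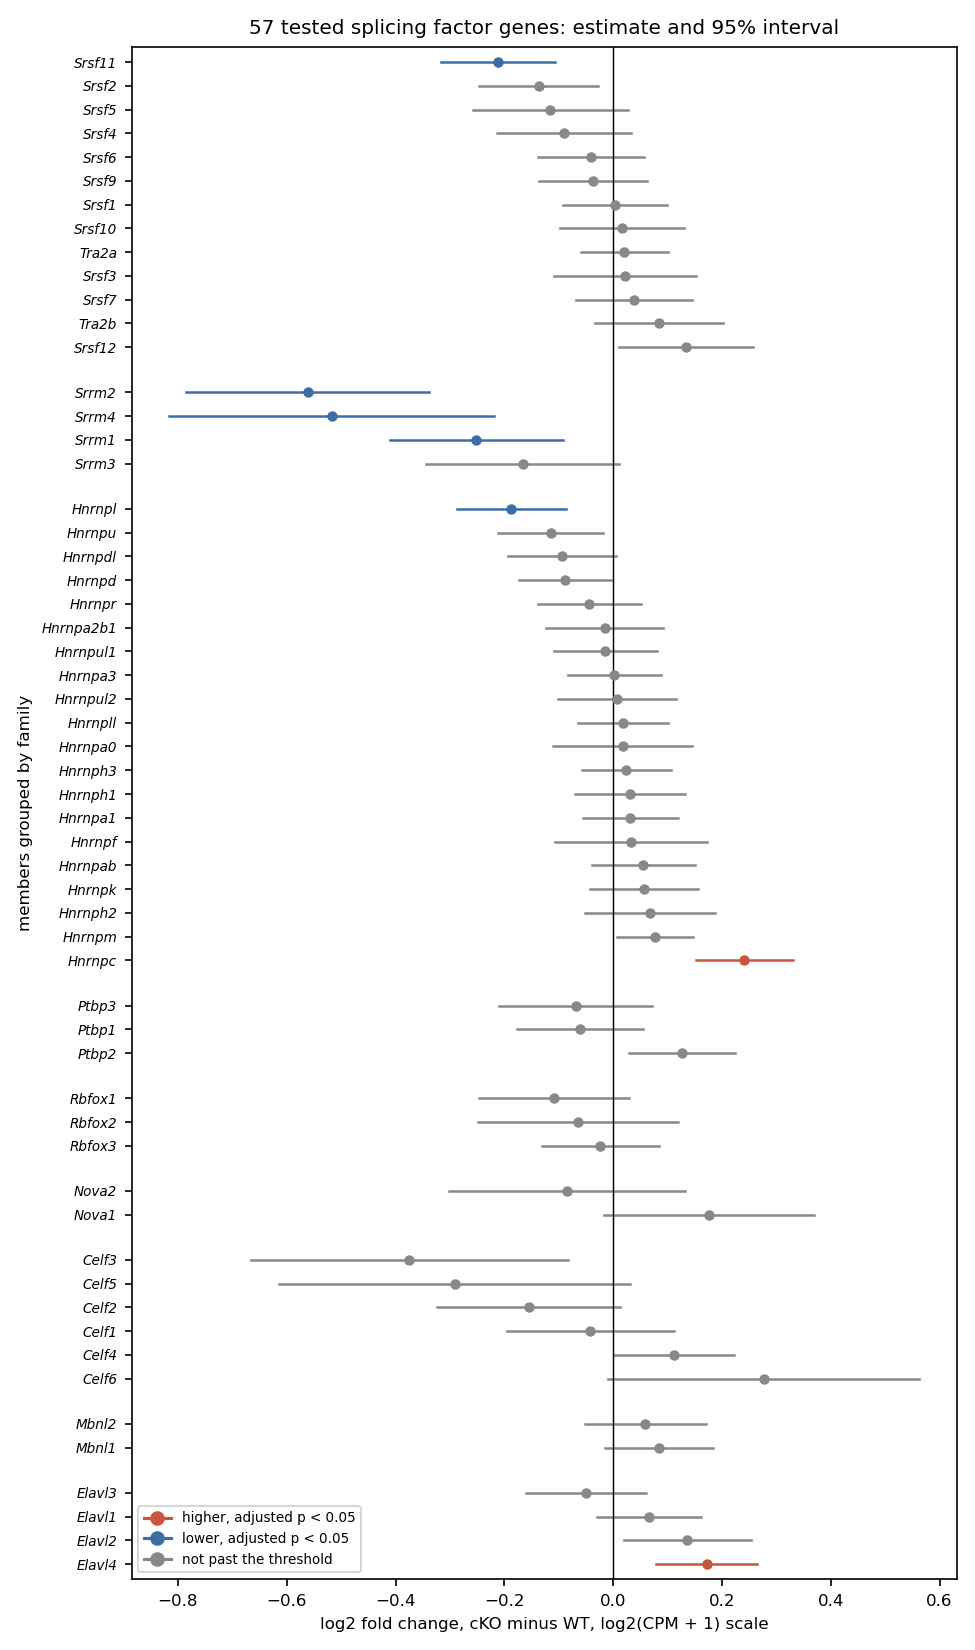
Log2 fold change (cKO minus WT, x axis, log2(CPM + 1) scale) of the 57 tested members by family (y axis), with points for estimates and lines for 95% intervals from limma, not adjusted for the number of genes. Srrm2 and Srrm4 lie farthest to the left, at -0.56 and -0.52, while most SR and hnRNP genes lie close to 0.

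The Srrm genes encode large serine- and arginine-rich proteins of the splicing apparatus. Of the 4, 3 were past the threshold and lower in the libraries labelled cKO (7.6% of all tested genes were), which is a description of 4 genes and not a test of the family. Srrm2, a scaffold protein of nuclear speckles, changed most among the members. It was at 781, 669, 582, 843, 656, 798 and 716 CPM in WT 1, 4, 5, 6, 7, 11 and 15. In cKO 8, 9, 12, 13 and 14 it was at 520.0, 518, 557, 378 and 471 CPM. The groups did not overlap, WT 5 lay closest to the cKO range, and cKO 13 was lowest. The means were 721 ± 92.1 and 489 ± 69.2 CPM, a ratio of 0.678 and a log2 change of -0.56 (SE 0.10, adjusted p-value 0.0064 by limma). A gene on the opposite strand, Elob, shares exon sequence with Srrm2 in GENCODE and was higher (62.0 CPM on average, log2 fold change 0.17, limma adjusted p-value 0.0372). The strand setting of the counting is not stated, so reads of such pairs cannot be told apart.

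Srrm4, also called nSR100, is a neuronal protein that promotes the inclusion of very short exons. Srrm4 was at 65.6, 52.7, 46.1, 63.8, 75.4, 87.4 and 60.8 CPM in the same order of WT mice, and at 51.1, 47.9, 44.9, 33.8 and 44.0 CPM in cKO. WT 5 lay below cKO 8 and cKO 9, and 3 of the 5 cKO libraries lay below every WT library. The ratio of means was 0.687 and the log2 change -0.52 (SE 0.14, adjusted p-value 0.0269 by limma). Without WT 1, cKO 13 or cKO 14 the limma adjusted p-value was 0.0545, 0.0655 and 0.0542. With the thalamic marker mean as a covariate it was 0.207, at a log2 change of -0.37. With the hypothalamic marker mean added it was 0.0890, at a log2 change of -0.44, and without the filter on low values it was 0.0540. Srrm4os, an antisense transcript that overlaps Srrm4, was at 2.26 CPM on average and was also lower (log2 fold change -0.62, limma adjusted p-value 0.0256).

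Srrm1, a coactivator that bridges SR proteins and the core machinery, was at 198, 175, 161, 223, 191, 195 and 183 CPM in WT and at 177, 156, 169, 143 and 148 CPM in cKO. The highest cKO values, in cKO 8 and 12, fell among the lower WT values. The log2 change was -0.25 (SE 0.07, adjusted p-value 0.0385 by limma), and 7 of the 12 fits that left out 1 mouse lost the call, with WT 1, 6, 7 or 11 or cKO 9, 13 or 14 left out (adjusted p-values up to 0.0899). The call was also lost without the filter on low values (0.0739), with eBayes without trend (0.0526), after the GC and length correction (0.0573) and with the thalamic marker mean as a covariate (0.0805, all limma adjusted p-values). In the last of these fits the estimate was larger, at -0.30. Srrm3, a neural relative of Srrm4, was at 59.9 to 75.1 CPM in WT and 51.4 to 71.4 CPM in cKO. Its log2 fold change of -0.17 (95% interval -0.34 to 0.01, limma adjusted p-value 0.187) did not pass.

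**Figure D3:**
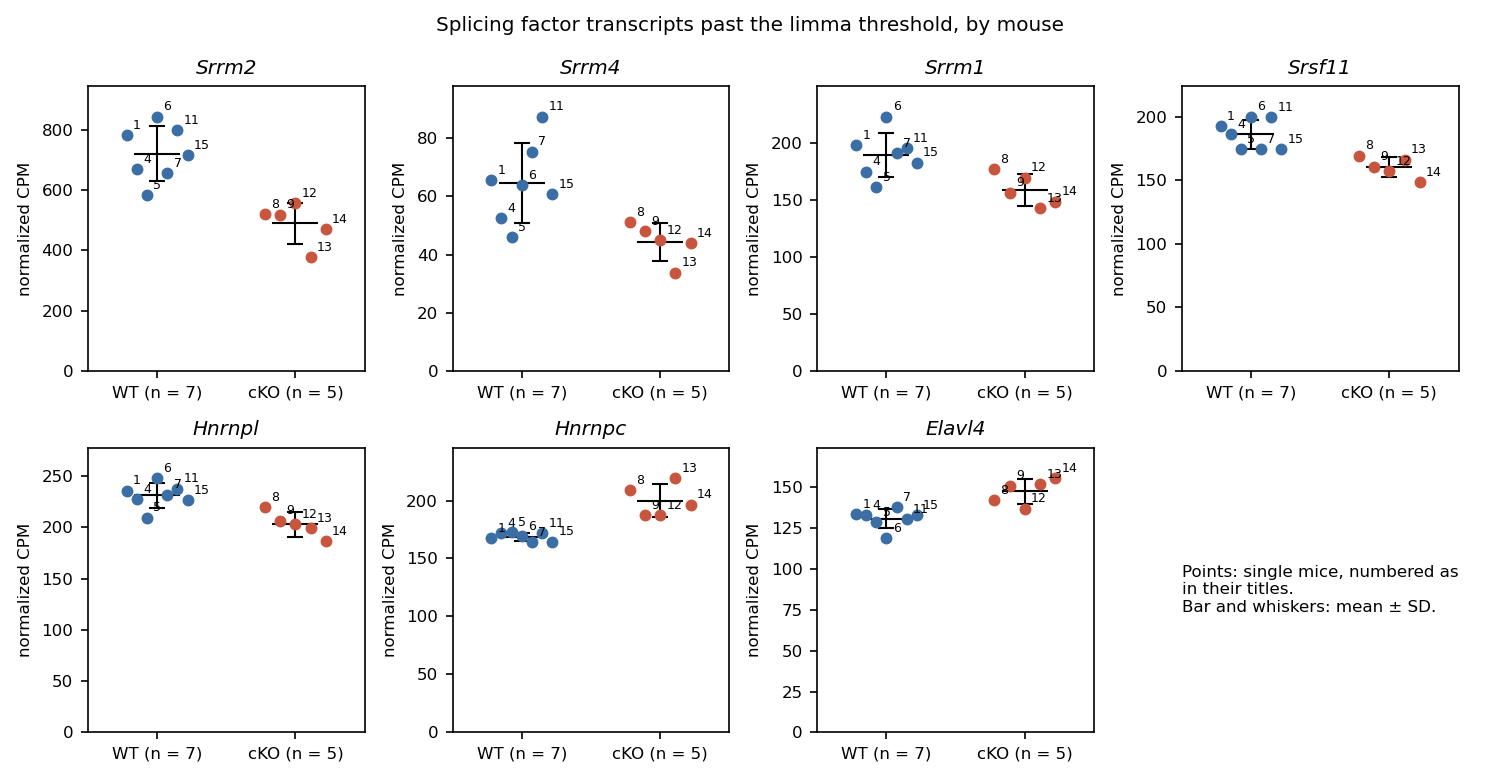
Normalized CPM (y axis, from 0) of the 7 members past the threshold in each mouse (points, numbered as in the titles), with the mean and SD of each group (WT, n = 7; cKO, n = 5). The groups do not overlap for Srrm2, Srsf11 and Hnrnpc, and mouse cKO 13 is lowest in Srrm1, Srrm2 and Srrm4.

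Among the SR genes 1 of 13 was past the threshold, where 14.1% of all tested genes were. Srsf11, which encodes an SR-related protein, was at 193, 187, 175, 200.3, 175, 200.01 and 175 CPM in WT. In cKO it was at 169.6, 161, 158, 166 and 149 CPM. All 5 cKO libraries lay below all 7 WT libraries, with a narrow gap between 169.6 (cKO 8) and 175 CPM. The log2 change was -0.21 (SE 0.05, adjusted p-value 0.0149 by limma), and it was past the threshold in each of the 12 fits without 1 mouse. With the thalamic marker mean as a covariate the log2 fold change was -0.20 (limma adjusted p-value 0.0811). With the hypothalamic marker mean added it was -0.21 (limma adjusted p-value 0.0709). The other 12 SR genes had estimates between -0.14 (Srsf2) and 0.13 (Srsf12). Srsf1, the most abundant of them by mean CPM over the 12 mice and a classical activator of exon inclusion, was at 237 ± 13.8 CPM and 237 ± 8.35 CPM. Its log2 fold change was 0.00, with a 95% interval from -0.09 to 0.10. Tra2a and Tra2b, which bind exonic GAA repeats, were at 0.02 (SE 0.04) and 0.08 (SE 0.05) on the log2 scale, neither past the threshold.

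Of the 20 hnRNP genes 2 were past the threshold (14.1% of all tested genes were), in opposite directions. Hnrnpc encodes a nuclear protein that binds uridine tracts and packages new transcripts. It was the most tightly held of the 7 within WT, at 167, 172, 172, 169, 164, 172 and 165 CPM, and stood at 209, 187, 188, 219 and 196 CPM in cKO. Every cKO library lay above every WT library, and the cKO libraries spread more widely (SD 13.9 against 3.58 CPM). The ratio of means was 1.18 and the log2 change 0.24 (SE 0.04, adjusted p-value 0.0046 by limma), and it was past the threshold in all 13 alternatives and in all 12 fits that left out 1 mouse. Hnrnpl, which binds CA repeats, was at 236, 228, 209, 248, 232, 238 and 227 CPM in WT and at 219, 206, 203, 199 and 187 CPM in cKO. WT 5 lay below cKO 8, and 4 of the 5 cKO libraries lay below every WT library. Its log2 change was -0.19 (SE 0.05, adjusted p-value 0.0208 by limma). Without cKO 14 its adjusted p-value was 0.0518, and with the thalamic marker mean as a covariate it was 0.0775 (log2 fold change -0.20). The 18 others had estimates from -0.11 (Hnrnpu, a chromatin-associated RNA-binding protein) to 0.08 (Hnrnpm). Hnrnpa2b1 was at 581 ± 25.7 CPM and 575 ± 41.6 CPM, with a log2 change of -0.02 (95% interval -0.12 to 0.09). Several hnRNP genes have processed copies in the genome, so their reads may be split in a way the counting does not record.

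The families best known from neurons held 1 call, among the 4 Elavl genes and not the 16 others (14.1% of all tested genes were past). Elavl4, also called HuD, is a neuronal protein that binds AU-rich RNA. It was at 134, 133, 129, 119, 138, 130.4 and 133 CPM in WT and at 142, 151, 137, 152 and 156 CPM in cKO. In 4 of the 5 cKO libraries it was above all WT libraries, and cKO 12 fell just under WT 7. The log2 change was 0.17 (SE 0.04, adjusted p-value 0.0212 by limma). Without cKO 9 or cKO 14 the adjusted p-value was 0.0501 and 0.0533. Of 8 general neuronal marker genes 2 were also higher, Stmn2 by 0.20 and Map2 by 0.25 on the log2 scale (limma adjusted p-values 0.0224 and 0.0162), where 6.54% of all tested genes were higher. The mean of log2(CPM + 1) over the 8 was 9.40 to 9.55 in WT and 9.54 to 9.63 in cKO, and its part in the Elavl4 difference was not tested. Elavl3 was at 317 ± 16.4 CPM and 306 ± 23.0 CPM, a log2 change of -0.05 that did not pass.

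None of the 3 Rbfox, 2 Nova, 6 Celf, 3 Ptbp and 2 tested Mbnl genes passed the limma threshold, where 14.1% of all tested genes did. At an unadjusted p-value under 0.05 there were 3 of these 16 (31.1% of all tested genes were). Of the 16, edgeR called 0 and DESeq2 1, Celf3, where they called 2097 and 2747 of all 15359 tested genes. Over the 25 alternative fits 5 of the 16 passed at least once, namely Celf3, Celf4, Celf5, Mbnl1 and Ptbp2, and no Rbfox or Nova gene did. The share of all tested genes that passed at least once was not counted, so the 5 are a description. Single fits called from 779 (thalamic marker mean as a covariate) to 5126 genes (arrayWeights) over the whole table. Celf3 passed in 5 of the 25, which were DESeq2 (adjusted p-value 0.0299), limma with arrayWeights (0.0063), and limma without WT 5 (0.0233), without cKO 8 (0.0487) or without WT 4 and WT 5 (0.0130). By limma, Ptbp2 passed with median centring (0.0440) and without cKO 12 (0.0370), Celf4 and Mbnl1 with arrayWeights (0.0168 and 0.0481), and Celf5 without WT 4 and WT 5 (0.0412). Among the 16, Ptbp2 (log2 fold change 0.13, adjusted p-value 0.0780) and Celf3 (-0.37, adjusted p-value 0.0795) came closest, and Celf3 is named here after its values were seen. Celf3 was at 117 ± 24.3 CPM and 89.0 ± 13.4 CPM. The 95% interval of its change, not adjusted for the number of genes, ran from -0.67 to -0.08. Estimates of the Celf genes, which bind CUG and UG repeats, ran from -0.37 (Celf3) to 0.28 (Celf6), with standard errors up to 0.15. Rbfox1 was at 233 ± 19.3 CPM and 216 ± 16.7 CPM, a log2 change of -0.11 (95% interval -0.25 to 0.03). Without cKO 8 the Rbfox1 change was -0.06, and with the thalamic marker mean as a covariate it was also -0.06. Nova1, the founding neuronal splicing regulator, was at 137 ± 17.7 CPM and 154 ± 9.86 CPM, a log2 change of 0.18 (95% interval -0.02 to 0.37). Without WT 11 the Nova1 change was 0.10, and with the thalamic marker mean as a covariate it was -0.012. Celf4 was at 775 ± 52.3 CPM and 836 ± 36.5 CPM, a log2 change of 0.11 (limma adjusted p-value 0.155). Mbnl2, which muscle and brain use to switch exons as they mature, was at 211 ± 11.7 and 219.6 ± 15.7 CPM, a log2 change of 0.06 (limma adjusted p-value 0.469).

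Most members that did not pass were measured closely enough to bound a change. The 95% interval lay wholly between -0.25 and 0.25 on the log2 scale for 40 of the 50, and the other 10 were Celf2, Celf3, Celf5, Celf6, Elavl2, Nova1, Nova2, Srsf5, Srsf12 and Srrm3. Over the 57 tested members that share was 70.2%, against 46.1% of all tested genes and 60.2% of genes at least as abundant as the lowest tested member. The median SE of the members was 0.05 log2 units, against 0.07 over all tested genes.

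Promoters are shown for 4 of the 7 members past the threshold, the Srrm gene that changed most and 3 whose windows hold several CCAAT or CTCF-core matches. They are the 250 bases before the first start that the RefSeq table of GRCm38.p6 lists. Srrm2 is at chr17:23802937-23803186 (plus strand), Hnrnpc at chr14:52104022-52104271 (minus strand), Hnrnpl at chr7:28810640-28810889 (plus strand) and Elavl4 at chr4:110351912-110352161 (minus strand). Each is written 5′ to 3′ in the direction of the gene, and capitals mark matches on either strand to the CCAAT box (CCAAT), the GC box (GGGCGG), the TATA box (TATAAA) or the core of the CTCF motif. CTCF is the DNA-binding protein at which cohesin stops on chromatin.
Srrm2: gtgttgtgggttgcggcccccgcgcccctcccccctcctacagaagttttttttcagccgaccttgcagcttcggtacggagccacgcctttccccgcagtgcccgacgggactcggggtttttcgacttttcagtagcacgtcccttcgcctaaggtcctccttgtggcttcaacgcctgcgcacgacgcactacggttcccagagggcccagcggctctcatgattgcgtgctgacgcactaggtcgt
Hnrnpc: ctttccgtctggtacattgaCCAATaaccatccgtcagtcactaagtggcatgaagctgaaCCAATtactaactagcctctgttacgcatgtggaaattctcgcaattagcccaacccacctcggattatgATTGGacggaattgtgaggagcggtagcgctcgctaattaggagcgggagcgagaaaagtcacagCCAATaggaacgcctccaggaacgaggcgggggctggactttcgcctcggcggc
Hnrnpl: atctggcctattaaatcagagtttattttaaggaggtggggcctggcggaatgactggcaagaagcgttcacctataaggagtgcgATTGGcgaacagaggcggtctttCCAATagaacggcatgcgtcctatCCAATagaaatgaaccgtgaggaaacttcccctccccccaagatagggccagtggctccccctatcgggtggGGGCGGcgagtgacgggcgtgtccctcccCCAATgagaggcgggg
Elavl4: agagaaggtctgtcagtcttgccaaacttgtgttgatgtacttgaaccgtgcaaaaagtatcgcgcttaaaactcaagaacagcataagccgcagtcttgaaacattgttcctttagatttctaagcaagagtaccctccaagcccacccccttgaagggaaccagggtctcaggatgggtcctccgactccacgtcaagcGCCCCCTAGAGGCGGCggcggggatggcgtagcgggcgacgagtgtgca

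Hnrnpc and Hnrnpl each held 4 CCAAT matches in this window, although one was higher and the other lower in the libraries labelled cKO. Such a number was found in 4 of the 53 members with an entry in the table and in 1.37% of the promoters of the 12009 tested genes with one. Elavl4 held 2 overlapping matches to the CTCF core close to the start used, the first of 4 listed for it. The window of Srsf11, not shown, held 1. At least 1 such match was present in 7 of the 53 members (13.2%) and in 10.4% of tested genes. The Srrm2 window held none of these letters. A CCAAT match was found in 45.3% of members and 35.9% of tested genes, a GC box in 62.3% and 57.1%, and a TATA box in 13.2% and 6.38%. The windows of the members were rich in CG dinucleotides, with a median of 19 against 15 in those of tested genes. These are matches of letters, not measured binding.

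The splicing machinery around the members was read through 3 further lists. Of 57 genes of the core spliceosome, all tested, 7 were higher and 2 lower, which is 15.8% past the limma threshold where 14.1% of all tested genes were. Their median log2 change was 0.06, and with the thalamic marker mean as a covariate 3 were past it (779 of all 15359 tested genes were). The rises were small, and the largest were those of Txnl4a and Usp39, of the tri-snRNP, and Snrpn, of the Sm ring. Txnl4a rose by 0.24 log2 units (SE 0.06, limma adjusted p-value 0.0189), Snrpn by 0.22 (SE 0.06, adjusted p-value 0.0261) and Usp39 by 0.21 (SE 0.05, adjusted p-value 0.0168). Snrpn was not past the limma threshold without WT 1, cKO 9 or cKO 13 (adjusted p-values 0.0600, 0.0621 and 0.0577), without the filter on low values (0.0690) or after the GC and length correction (0.0619). With the thalamic marker mean as a covariate the limma adjusted p-value was 0.102 for Txnl4a, 0.130 for Usp39 and 0.126 for Luc7l2, at log2 changes of 0.22, 0.17 and -0.18. With the hypothalamic marker mean added it was 0.0882 for Usp39 (log2 change 0.18). Of the 13 alternatives other than leaving out 1 mouse, 2 lost the Luc7l2 call. The falls were those of Snrnp70, the 70K protein of U1, and Luc7l2, a U1-associated factor. Snrnp70 went from 390.1 ± 42.6 CPM to 290.2 ± 13.5 CPM, with no overlap of the groups and a log2 change of -0.42 (SE 0.07, adjusted p-value 0.0038 by limma). Luc7l2 fell by 0.20 log2 units (SE 0.05, limma adjusted p-value 0.0198). With WT 1, cKO 9 or cKO 14 left out, 4, 5 and 5 genes of this list were past the threshold. Calls over all tested genes fell from 2172 to 1158, 1502 and 1456 in the same fits. Of 10 kinases that phosphorylate SR proteins or belong to the same families, 1 was past it (14.1% of all tested genes were): Dyrk1b was lower, at 82.2 ± 5.29 against 66.5 ± 5.09 CPM, with a log2 change of -0.30 (SE 0.06, adjusted p-value 0.0065 by limma). Without cKO 13 the count was 3, where 1549 of all 15372 tested genes were past the threshold.

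Among 48 other splicing regulators 45 were tested, and 2 were higher and 8 lower. That is 22.2% past the limma threshold, against 14.1% of all tested genes (6.54% higher and 7.6% lower). Their median log2 change was -0.04, and with the thalamic marker mean as a covariate 5 were past the threshold (779 of all 15359 tested genes were). Rbm3 and Cirbp, RNA-binding proteins known to be induced by cold, were the largest falls. Rbm3 went from 43.4 ± 3.34 CPM to 30.4 ± 2.16 CPM, with no overlap of the groups and a log2 change of -0.50 (SE 0.06, adjusted p-value 8.9e-04 by limma). Cirbp had a log2 change of -0.33 (SE 0.08, adjusted p-value 0.0180 by limma) and the helicase Ddx17 one of -0.31 (SE 0.07, limma adjusted p-value 0.0136). The rises were those of Sap18 (0.21) and Zfr (0.13). With the thalamic marker mean as a covariate the limma adjusted p-value was 0.0937 for Cirbp (log2 change -0.32) and 0.0806 for Zfr (0.14). After the GC and length correction it was 0.0723 for Sap18 (0.11). In all, Zfr was not past the threshold in 3 of the 13 alternatives other than leaving out 1 mouse. Without WT 1 the list held 6 calls, while calls over all tested genes fell from 2172 to 1158.

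Noncoding RNAs that stay in the nucleus were read as well. Of 5 of them, picked after values had been seen, 4 were lower in the libraries labelled cKO (7.6% of all tested genes were), with no overlap of the groups (6.73% of all). Since these RNAs were picked by their values, the count is a description. Meg3 was at 3212 to 4556 CPM in WT and 2248 to 3058 CPM in cKO (log2 fold change -0.54, limma adjusted p-value 0.0082). Malat1, a component of nuclear speckles, was at 609 to 741 CPM against 387 to 569 CPM (log2 fold change -0.50, limma adjusted p-value 0.0038). Miat and Snhg11 had log2 changes of -0.73 and -0.64 (limma adjusted p-values 0.0040 and 0.0057). Neat1 did not pass (log2 fold change -0.70, limma adjusted p-value 0.0543). Within WT, the mice WT 1, 6 and 11 held the 3 highest values of 4 of the 5 lower members. These were Srrm1, Srrm2, Srsf11 and Hnrnpl, not Srrm4. The same held for Snrnp70, Meg3, Miat and Snhg11, though not for Malat1, Neat1 or Srrm3. The share of all tested genes with this order of mice was not counted, so it is a description and no link between these genes. The mean of log2(CPM + 1) over the 5 RNAs was 9.47 to 9.92 in WT and 8.81 to 9.34 in cKO, lowest in cKO 14 and cKO 8, while Srrm2 was lowest in cKO 13 and cKO 14. Whether the nuclear share of the RNA differed between libraries, and its part in the Srrm values, was not tested. After removing each library's trend with GC content and transcript length, Srrm2 stood at -0.45 (limma adjusted p-value 0.0068).

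**Figure D4:**
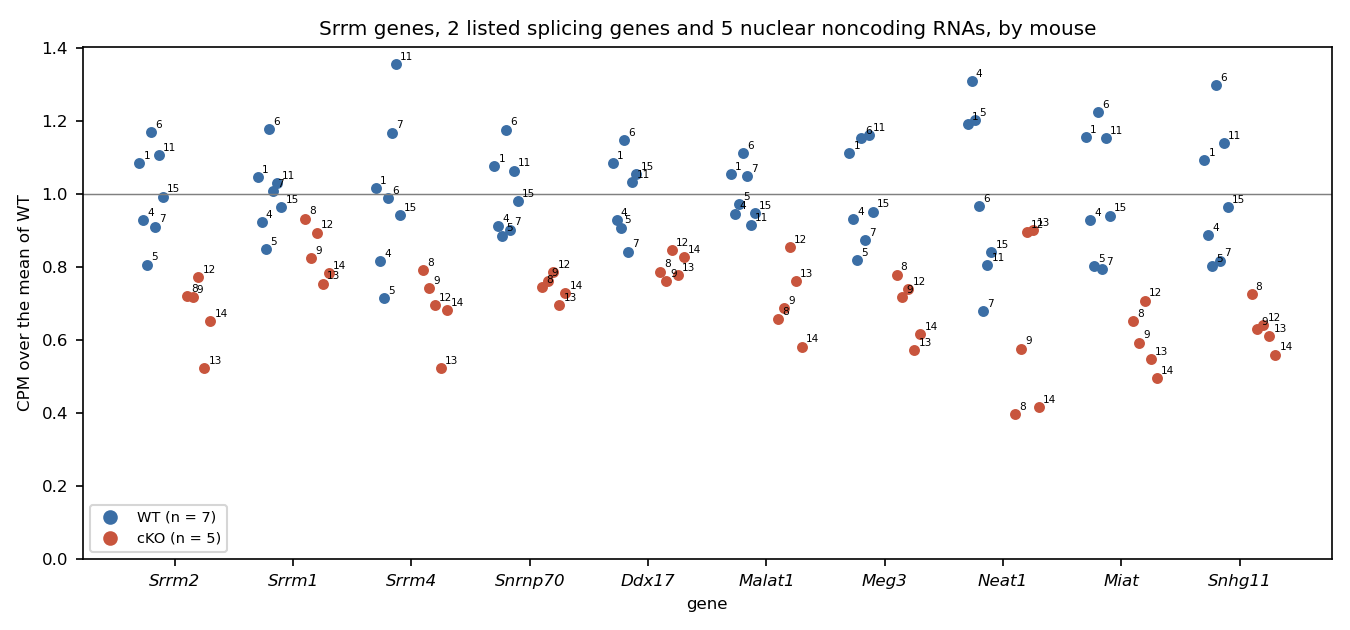
CPM divided by the WT mean (y axis, from 0) for 3 Srrm genes, Snrnp70, Ddx17 and 5 nuclear noncoding RNAs in each mouse (points numbered as in the titles; WT in blue, n = 7; cKO in red, n = 5). Mice WT 1, 6 and 11 sit above 1 in Srrm2, Snrnp70, Meg3, Miat and Snhg11, an order not counted over all tested genes. The cKO mice sit below all WT mice in Srrm2, Snrnp70, Malat1, Meg3, Miat and Snhg11.

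For the same contrast, at a false discovery rate (FDR) under 0.05 the authors' deposited table also has 7 members, 2 higher and 5 lower, and they are the 7 called by limma (9.09% of the genes tested here are past that rate in it). In the authors' deposited table Hnrnpc has a log2 change of 0.25 (FDR 0.0011), Srrm2 one of -0.56 (FDR 3.0e-05) and Elavl4 one of 0.17 (FDR 0.0496).

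**Figure D5:**
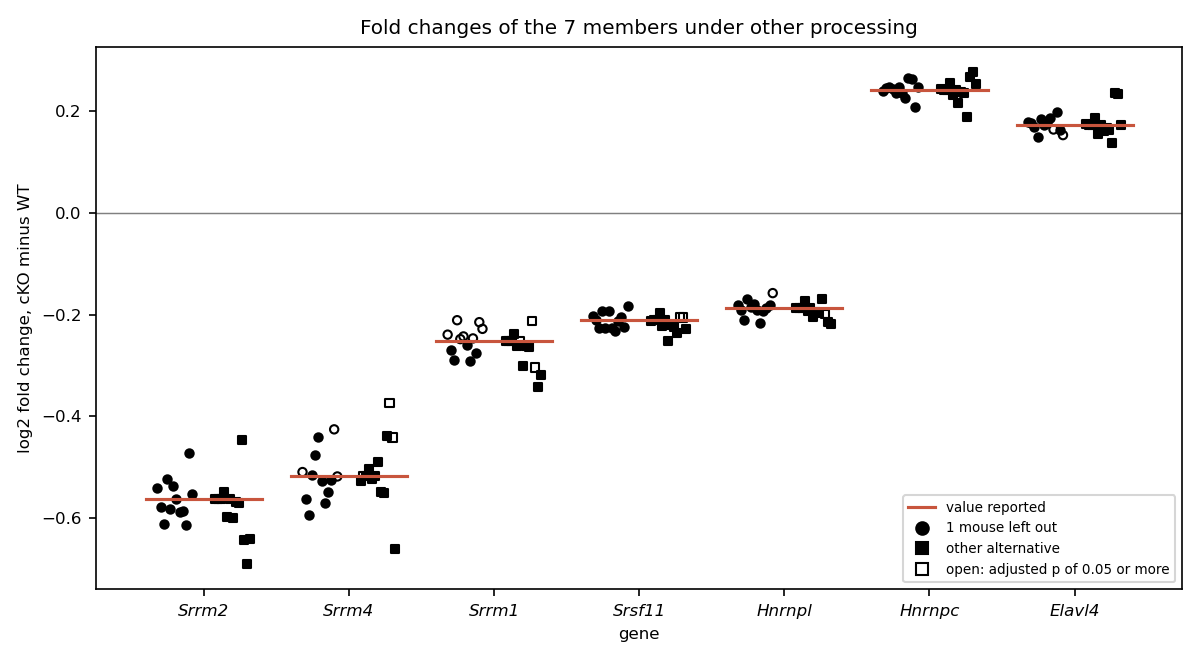
Log2 fold change (cKO minus WT, y axis) of the 7 members past the threshold as reported (red line), in 12 fits that each left out 1 mouse (circles) and in 13 other alternatives (squares), with open symbols where the limma, edgeR or DESeq2 adjusted p-value was 0.05 or more. All 7 kept their direction in these 25 fits, and no symbol is open for Srrm2 and Hnrnpc.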

How the data were processed

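The members and lists were chosen with earlier results of these data known. Per the submitters' processing notes, reads were handled with STAR 2.7.9a, SAMtools, Subread and featureCounts. The genome build, annotation and strand setting are not given in the sources used here. The authors deposited normalized CPM for 32494 genes, and their own test with log2 fold changes, p-values and FDR. Deposited CPM values were whole multiples of 1 step per library for 100% of values (tolerance 0.01 reads), so whole reads were recovered. The implied scaling factors, 0.987 to 1.02, were edgeR's TMM factors. No column was left unused. The 31 pairs of replicates within groups differed by more than sampling noise, and unevenly. In WT the chi-square per degree of freedom ran from 3.04 (WT 4 with WT 5) to 26.3 (WT 5 with WT 11). In cKO it ran from 3.80 (cKO 9 with cKO 14) to 24.5 (cKO 8 with cKO 13).

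CPM is no raw count, so the main test was limma 3.58.1 (R 4.3.3; lmFit, eBayes with trend), with no covariate, for 15359 genes on log2(CPM + 1), with Benjamini-Hochberg adjustment. Fold changes on this scale understate changes of low genes. p-values measure the spread between mice. On simulated counts for this comparison, 196 tested genes of 15335 were changed by 1 log2 unit. The limma test recovered 90.8% of them, and 5.82% of its calls were false. Noise was drawn gene by gene, and no smaller change was simulated. These rates therefore do not apply to changes as small as those of the members, of which the largest was -0.56 (Srrm2). On the recovered reads, edgeR 4.0.16 (quasi-likelihood) called 2097 genes and DESeq2 1.42.0 called 2747, against 2172.

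Named by rule were members past the threshold, the most abundant member of each family, and up to 3 rises and 3 falls of each further list. Alternatives were a pseudocount of 0.1, no filter, a mean of 5 CPM, median centring, quantile normalization, eBayes without trend, arrayWeights, both count tests, a GC and length correction (GENCODE M21 matched 14515 tested genes, 94.5%), marker means as covariates, and leaving out each mouse. Leaving out WT 4 and WT 5 together was chosen after seeing the data. Promoters came from RefSeq, with 53 of 58 members matched by symbol.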

Additional observations from a re-analysis of the deposited data

Results flagged for a closer look

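Among 54 groups of values examined (27 named genes, Smc3 included, in 2 groups), 2 held a mouse far from the rest of its group, where chance gives 2.7. Nova1 was at 97.8 CPM in WT 11 (2368 reads), while the other 6 WT libraries lay between 137 and 149.7 CPM. Rbfox1 was at 187 CPM in cKO 8 (4450 reads), with the other cKO libraries between 217 and 229 CPM.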

How the results depend on the processing

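The 7 members past the threshold kept their direction in all alternatives. No paired analysis was possible because WT and cKO mice carry different numbers. Member calls numbered 16 with arrayWeights (6 higher), 3 with the thalamic score, and 3 (without cKO 14) to 9 when 1 mouse was left out. Core spliceosome calls numbered 20 with arrayWeights, 3 with the thalamic score, 4 with both scores, and with 1 mouse less 4 (without WT 1) to 12. Kinase calls numbered 4 with arrayWeights and 2 after the GC and length correction, and with 1 mouse less they numbered 1 to 3 (without cKO 13). Calls among the other regulators numbered 18 with arrayWeights, 5 with the thalamic score, and between 6 (without WT 1) and 11 over the fits lacking 1 mouse. All-gene calls numbered 5126 with arrayWeights, 779 with the thalamic score, 1326 with both, and with 1 mouse less 1158 (without WT 1) to 2302. Their share of higher genes was 46.2%. It was 56.6% after median centring, 60.9% after the GC and length correction, 52.8% with a mean of 5 CPM and 50.8% after quantile normalization. It was lower, at 36.1% with the thalamic score, 36.1% with both scores and 41.8% without the filter on low values. Shares of 42.5% by edgeR, 43.0% with eBayes without trend, 44.5% by DESeq2 and 43.5% without WT 4 and WT 5 were lower too. With 1 mouse less it ran from 42.6% (without WT 1) to 47.2% (without cKO 12).

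Signs turned for Elavl3, Mbnl2, Nova1, Srsf1 and Hnrnpa2b1, none of them past the threshold in these fits. Elavl3 became 0.016 after the GC and length correction and 0.0022 with both scores. Mbnl2 became -0.014 with arrayWeights. Nova1 became -0.012 with the thalamic score and -0.0039 with both. Srsf1 became -0.028 with arrayWeights, -0.0053 by edgeR, -0.0080 by DESeq2, -0.038 after the GC and length correction, -0.033 with the thalamic score, -0.048 with both, -0.0030 without WT 4 and WT 5, and -0.023 to 0.019 with 1 mouse less. Hnrnpa2b1 became 0.016 with the thalamic score, 0.0082 with both, and -0.045 to 0.018 with 1 mouse less. Over the 27 named genes, 614 of 675 values kept sign and side of the threshold, 38 lost the threshold, 3 gained it and 20 changed sign. What causes these shifts was not tested. Mbnl3, at 4 to 53 reads, was the only member that the filter on low values left out.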
